A study of Mus musculus with 8 samples.

Results

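The transcripts of 8 genes that set the electrical behaviour of the muscle fibre membrane were followed in nuclei of the mouse gastrocnemius, in the calf. The genes were Scn4a, Clcn1, Kcnj2, Kcnj11, Kcnma1, Atp1b1, Slc8a3 and Nos1. They were taken by name and not by a rule on measured values, though earlier results of these data were known. All 8 are among the 21207 gene symbols listed in all 8 libraries. Unique molecular identifiers (UMIs, tags that let each captured RNA molecule be counted once) of each gene were summed per library and per class of nuclei. A level is given in CPM, the UMIs of the gene with all UMIs of the same nuclei scaled to 1000000.

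The muscle fibre membrane, the sarcolemma, fires when voltage-gated sodium channels open, and it returns to rest through chloride and potassium channels. The sodium pump then restores the ion gradients, and calcium that entered is carried out in exchange for sodium. Fast glycolytic fibres (type IIb), fast oxidative fibres (IIa and IIx) and slow fibres differ in how often and how long they fire, so the channels and pumps of the fibre types are a classic point of comparison.

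The libraries came from wild-type mice in 4 groups of 2 libraries each, and every comparison below is made over libraries, not over nuclei. Young mice were 3 months old and Old mice 20 months old. Running mice entered treadmill training at 11 months of age and trained for 2 months, and Sedentary mice were their unexercised comparison. Replicate 1 of each group is labelled as 10x Genomics and replicate 2 carries no such label and has barcodes of another form. These library sets were a term in every fit between groups, and the library was a block in every fit within libraries. The sources used here do not say how many animals a library holds, so p-values measure the spread between these libraries only.

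After the nuclei filter of the study 64803 of 65280 nuclei remained. UMI totals were between 23390969 and 44454427 in the replicate 1 libraries and between 4839878 and 9278034 in the replicate 2 libraries, and median UMIs per nucleus ran from 909 to 3001. Old replicate 2 stood apart, with 3674 of its 4772 nuclei in clusters that could not be named and 26 nuclei called Type IIb-like. Sedentary replicate 1 also stood apart from the other replicate 1 libraries, with 1355 of its 10587 nuclei in unnamed clusters. The largest unnamed cluster of the replicate 1 libraries was led by Gm10800. Young replicate 2 held a larger share, with 986 of its 4510 nuclei in unnamed clusters, and 284 Type IIb-like nuclei. The replicate 1 libraries shared between 30 and 46 cell barcodes in pairs. The barcodes of the replicate 2 libraries are running numbers and could not be compared. Where leaving out Old replicate 2 or Sedentary replicate 1 ended a call or turned a direction, the value without it is given here or in the closing section.

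Nuclei were clustered without the 8 genes and without the 61 other excitability genes described below, so that no class was built on them. The class names rest on marker genes and mean that nuclei are like that class. Slow-like nuclei had Myh7, Tnnt1 and Tnnc1 among their leading genes, Type IIa/IIx-like nuclei Myh1 or Myh2, and Neuromuscular junction-like nuclei Chrne and Colq. Type IIb-like nuclei came from several clusters, and Myh4 and Actn3 were leading genes in the largest of them alone. The myosin UMIs of single nuclei went against the names in the replicate 2 libraries. With a nucleus counted for a type where that type held at least 75% of its myosin UMIs, Slow-dominant nuclei numbered 13 in Young, 8 in Old, 1 in Sedentary and 0 in Running of these libraries, beside 506, 95, 69 and 103 Slow-like nuclei. IIa/IIx-dominant nuclei numbered 124, 38, 54 and 3, beside 1190, 175, 436 and 406 Type IIa/IIx-like nuclei. In the replicate 1 libraries of Old and Sedentary 125 and 295 nuclei were Slow-dominant, beside 149 and 388 Slow-like ones. IIa/IIx-dominant nuclei fell further short there, at 290 in Young, 885 in Old, 1660 in Sedentary and 1051 in Running. Type IIa/IIx-like nuclei of these libraries numbered 561, 1147, 2516 and 1550. Each call of the 8 genes between fibre types is therefore also given for the replicate 1 libraries alone. Values of the other excitability genes described below are given for all libraries together only, so this limit stays on them.

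Between Slow-like and Type IIb-like nuclei Atp1b1 had the largest positive and Nos1 the largest negative fitted difference of the 8 genes. The 250 bases before the RefSeq start of these genes are therefore shown (RefSeq, GRCm38.p6). The window of Atp1b1 is chr1:164458356-164458605 on the minus strand and the window of Nos1 is chr5:117866589-117866838 on the plus strand. Capitals mark matches on either strand to the E-box CANNTG, the NFAT core GGAAA and the CCAAT box.
Atp1b1: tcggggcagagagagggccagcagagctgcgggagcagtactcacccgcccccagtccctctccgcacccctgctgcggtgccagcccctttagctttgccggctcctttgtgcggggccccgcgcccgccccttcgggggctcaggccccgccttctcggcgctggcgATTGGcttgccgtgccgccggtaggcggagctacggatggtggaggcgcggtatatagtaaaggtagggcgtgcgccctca
Nos1: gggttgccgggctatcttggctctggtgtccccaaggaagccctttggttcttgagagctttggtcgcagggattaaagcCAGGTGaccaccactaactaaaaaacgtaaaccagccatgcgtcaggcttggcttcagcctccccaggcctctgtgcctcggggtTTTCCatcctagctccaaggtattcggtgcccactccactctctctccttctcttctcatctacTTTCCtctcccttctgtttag
The window of Atp1b1 is 70.4% G or C and that of Nos1 54.0%, against a median of 52.4% over 32851 RefSeq windows of the same length. The Atp1b1 window holds 1 CCAAT box, 81 bases before the start, and neither of the other motifs. The Nos1 window holds 1 E-box and 2 GGAAA cores. Of the 7 genes with a RefSeq window (Kcnj11 was not in the table) an E-box was found in 4, against 66.2% of all windows. A GGAAA core was found in 2 of 7, against 55.6% of all windows, and a CCAAT box in 3 of 7, against 33.8%. The MEF2 consensus was found in 1 of 7 (Clcn1), against 2.92%, and the TATA box TATAAA also in Clcn1 alone, against 12.4%. The MCAT motif CATTCC (12.6% of all windows) and the ERR receptor motif AAGGTCA (4.08%) were found in none of the 7. These matches describe the letters only. The RefSeq start of Nos1 lies inside the gene model of GENCODE vM21, which begins further upstream.

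The first question was how the genes are distributed over the fibre types. Of the 8, 5 differed between Type IIa/IIx-like and Type IIb-like nuclei of the same libraries and 7 between Slow-like and Type IIb-like nuclei. Atp1b1 was far higher and Kcnj2 modestly higher in both oxidative classes, and Slc8a3 and Nos1 were lower in both. Scn4a and Clcn1, the channels that carry and damp the action potential, and Kcnma1 were not called between the fast classes.

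Atp1b1 (chr1:164437109-164458355, minus strand) encodes the beta 1 subunit of the sodium pump, which brings the catalytic subunit to the membrane. In Type IIb-like nuclei its level was 16.6 CPM in Young replicate 1, 56.1 in Young replicate 2, 21.5 in Old replicate 1, 41.5 in Old replicate 2 (1 UMI), 35.3 in Sedentary replicate 1, 27.8 in Sedentary replicate 2, 16.4 in Running replicate 1 and 31.4 in Running replicate 2. In Type IIa/IIx-like nuclei the same libraries gave, in the same order, 467, 412, 585, 194, 370, 437, 290 and 440 CPM. The lowest Type IIa/IIx-like value was above the highest Type IIb-like value, and the ratio within a library ran from 4.67 to 28.2 with a median of 14.9 over 8 libraries. Slow-like nuclei held between 333 and 551 CPM in the 6 libraries with at least 20 such nuclei, which overlaps the Type IIa/IIx-like range. Against Type IIb-like nuclei the fit gave a log2 difference of 4.03 for Type IIa/IIx-like (SE 0.17, edgeR adjusted p = 2.6e-12) and 3.69 (SE 0.20, edgeR adjusted p = 1.7e-12) for Slow-like nuclei. These comparisons called 30.4% of 11383 genes (17.1% higher and 13.3% lower) and 23.0% of 7698 genes (12.5% higher and 10.6% lower).

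The share of nuclei with an Atp1b1 UMI showed the same division in the replicate 1 libraries. Among Type IIa/IIx-like nuclei it ran from 46.7% in Sedentary and 58.3% in Running to 67.4% in Young and 80.1% in Old. Among Type IIb-like nuclei it was 6.81%, 5.47%, 4.23% and 7.21% in the same order. Fibro-adipogenic progenitor-like nuclei, connective tissue cells that were taken as the background for muscle transcripts, gave 6.93%, 4.01%, 1.98% and 6.37%. Median UMIs per nucleus were 1740, 3237, 3260 and 3667 in Type IIb-like nuclei and 1150, 1901, 2662 and 2073 in the progenitors. With every nucleus thinned to 500 UMIs the shares in Type IIb-like nuclei were 2.56%, 1.10%, 0.658% and 1.19%, and in the progenitors 2.63%, 1.10%, 0.322% and 1.83%. Atp1b1 in Type IIb-like nuclei was therefore above the progenitors in 1 of 4 libraries (Young), by a small margin, and was at their level or below it in the other 3. Other classes lay on either side. The median was 6.12 CPM in lymphatic endothelial-like nuclei (6 UMIs), 19.0 in Type IIb-like and 49.2 in endothelial-like nuclei. Whether the progenitors express Atp1b1 themselves was not tested.

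**Figure D1:**
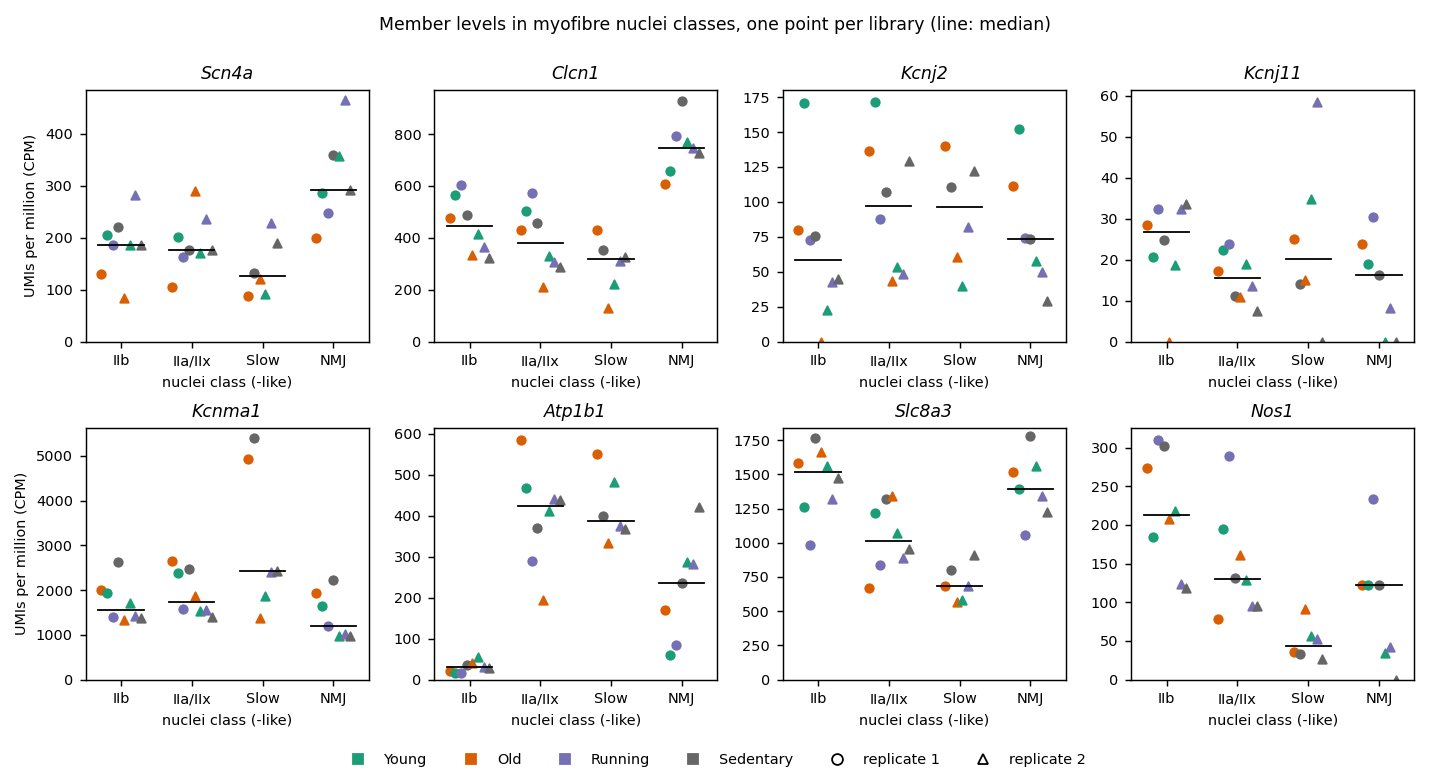
Level of each gene in CPM (vertical axes, starting at 0) in Type IIb-like, Type IIa/IIx-like, Slow-like and Neuromuscular junction-like (NMJ) nuclei. Each point is 1 library with at least 20 nuclei of the class, the colour gives the group, circles are replicate 1, triangles replicate 2 and the line is the median. Atp1b1 lies between 16.4 and 56.1 CPM in Type IIb-like nuclei and between 194 and 585 in Type IIa/IIx-like nuclei.

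Kcnj2 (chr11:111066164-111076821, plus strand) encodes an inward rectifier that holds the resting potential. Its Type IIb-like level was 171 CPM in Young replicate 1, 22.9 in Young replicate 2, 79.9 in Old replicate 1, 75.4 in Sedentary replicate 1, 44.5 in Sedentary replicate 2, 72.9 in Running replicate 1 and 42.9 in Running replicate 2, with no UMI in Old replicate 2. Type IIa/IIx-like levels in the same libraries were 171, 53.4, 136, 107, 130, 87.5 and 48.0 CPM, and 43.0 in Old replicate 2. The classes overlapped across libraries, but Kcnj2 was higher in Type IIa/IIx-like nuclei in 8 of 8 libraries, though almost equal in Young replicate 1. The fit gave 0.50 on the log2 scale (SE 0.14, edgeR adjusted p = 0.011). For Slow-like nuclei, where the gene was higher in 6 of 6 libraries, it gave 0.77 (SE 0.21, edgeR adjusted p = 0.0090). The replicate 1 libraries alone gave 0.34 for Type IIa/IIx-like nuclei with an edgeR adjusted p of 0.075, and nuclei assigned by their dominant myosin gave 0.28 with an edgeR adjusted p of 0.17.

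Nos1 (chr5:117781032-117958840, plus strand) encodes neuronal nitric oxide synthase, which sits under the sarcolemma of fast fibres. Type IIb-like nuclei held 184 CPM in Young replicate 1, 218 in Young replicate 2, 274 in Old replicate 1, 208 in Old replicate 2 (5 UMIs), 302 in Sedentary replicate 1, 118 in Sedentary replicate 2, 310 in Running replicate 1 and 124 in Running replicate 2. Slow-like nuclei held 56.5 in Young replicate 2, 35.4 in Old replicate 1, 90.7 in Old replicate 2, 33.1 in Sedentary replicate 1, 27.2 in Sedentary replicate 2 (2 UMIs) and 52.6 in Running replicate 2. No Slow-like value reached the lowest Type IIb-like value, and the log2 difference was -2.42 (SE 0.26, edgeR adjusted p = 1.2e-07). The Slow-like levels were within the range of the fibro-adipogenic progenitor-like nuclei of the replicate 1 libraries, 29.0 to 87.3 CPM, except in Old replicate 2 and, below it, Sedentary replicate 2.

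Type IIa/IIx-like nuclei stood between these classes for Nos1 and were the more variable. They held 194, 129, 77.8, 161, 132, 95.7, 289 and 94.8 CPM in the order Young, Old, Sedentary and Running, replicate 1 before replicate 2. The level was lower than in Type IIb-like nuclei in 7 of 8 libraries, Young replicate 1 being the exception. On the log2 scale the fit gave -0.68 (SE 0.17, edgeR adjusted p = 0.0039), but -0.79 with an edgeR adjusted p of 0.056 in the replicate 1 libraries alone.

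Slc8a3 (chr12:81197915-81333180, minus strand) encodes the sodium/calcium exchanger NCX3, which moves calcium out of the fibre. Its Type IIb-like level ran from 986 CPM in Running replicate 1 to 1767 in Sedentary replicate 1 with a median of 1517. Type IIa/IIx-like nuclei ran from 673 in Old replicate 1 to 1339 in Old replicate 2, and were lower than Type IIb-like nuclei in 8 of 8 libraries. Slow-like nuclei ran from 567 in Old replicate 2 to 910 in Sedentary replicate 2, and were lower in 6 of 6 libraries, without overlap. The log2 differences were -0.50 (SE 0.13, edgeR adjusted p = 0.0044) and -1.16 (SE 0.15, edgeR adjusted p = 2.3e-06).

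Kcnj11 (chr7:46093953-46100764, minus strand) encodes the pore of the ATP-sensitive potassium channel, which links the membrane to the energy state of the fibre. It was the most sparsely detected of the 8. The replicate 1 libraries gave 20.7 CPM in Young, 28.4 in Old, 24.8 in Sedentary and 32.2 in Running in Type IIb-like nuclei, against 22.3, 17.2, 11.1 and 23.7 in Type IIa/IIx-like nuclei. In the replicate 2 libraries the Type IIa/IIx-like level rested on between 2 and 47 UMIs. The log2 difference by the fit was -0.69 (SE 0.17, edgeR adjusted p = 0.0030), although the plain CPM was lower in only 5 of 8 libraries. Slow-like nuclei gave -0.10 (SE 0.34) and were not called.

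Kcnma1 (chr14:23289431-24014491, minus strand) encodes the pore of the large-conductance calcium-activated potassium channel. Type IIb-like nuclei held 1930 CPM in Young replicate 1, 1715 in Young replicate 2, 2007 in Old replicate 1, 1328 in Old replicate 2, 2626 in Sedentary replicate 1, 1375 in Sedentary replicate 2, 1387 in Running replicate 1 and 1410 in Running replicate 2. The Slow-like level was 4922 in Old replicate 1 and 5395 in Sedentary replicate 1, but 1867, 1384, 2432 and 2401 in the replicate 2 libraries of Young, Old, Sedentary and Running. It was higher than the Type IIb-like level in 6 of 6 libraries. On the log2 scale Slow-like nuclei were higher by 0.71 (SE 0.16, edgeR adjusted p = 0.0017). This was 1.08 in the replicate 1 libraries and 0.52 in the replicate 2 libraries when these were fitted alone. Type IIa/IIx-like nuclei did not differ by the test (0.15, SE 0.11).

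Scn4a (chr11:106318592-106353288, minus strand) encodes the voltage-gated sodium channel of skeletal muscle, and Clcn1 (chr6:42286685-42315756, plus strand) the chloride channel ClC-1, loss of which causes myotonia. Scn4a in Type IIb-like nuclei ran from 83.0 CPM in Old replicate 2 (2 UMIs) to 283 in Running replicate 2 with a median of 185. In Type IIa/IIx-like nuclei it ran from 106 in Old replicate 1 to 290 in Old replicate 2 with a median of 176. Clcn1 ran from 323 to 602 CPM in Type IIb-like and from 210 to 574 in Type IIa/IIx-like nuclei, and was lower in the latter in 8 of 8 libraries. The log2 differences between these fast classes were -0.18 (SE 0.10) for Scn4a and -0.21 (SE 0.08, edgeR adjusted p = 0.060) for Clcn1. Without Old replicate 2 both passed the test, at -0.24 (edgeR adjusted p = 0.012) and -0.22 (edgeR adjusted p = 0.022).

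Slow-like nuclei gave -0.59 for Scn4a (SE 0.18, edgeR adjusted p = 0.019) and -0.48 for Clcn1 (SE 0.16, edgeR adjusted p = 0.034). These calls were unstable and were lost in 7 and 9 of 15 alternatives. Without Sedentary replicate 1 the values were -0.49 and -0.45, without Young replicate 2 they were -0.45 and -0.32, and neither was called. Scn4a was also not called without Old replicate 1 (-0.57), nor Clcn1 without Running replicate 2 (-0.52). At a coarser clustering (resolution 0.5) the replicate 1 libraries had no separate endplate class, and Ano4, the leading gene of that class, was among the leading genes of the Slow-like nuclei. There Scn4a was at 0.046 and Clcn1 at -0.047, and the calls of Kcnj2 (0.40) and Kcnma1 (0.48) were lost as well, while those of Atp1b1 (4.05), Slc8a3 (-0.68) and Nos1 (-2.08) stood.

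In the replicate 1 libraries alone the log2 differences of Slow-like from Type IIb-like nuclei, over 2 libraries, were 4.02 for Atp1b1, 0.59 for Kcnj2, 1.08 for Kcnma1, -3.16 for Nos1, -1.26 for Slc8a3, -0.73 for Scn4a and -0.40 for Clcn1, and all 7 were called by edgeR. That fit called 3290 of 12444 genes, and with 2 libraries it had very few residual degrees of freedom. For Type IIa/IIx-like nuclei, over the 4 replicate 1 libraries, Atp1b1 (4.25), Kcnj11 (-0.61), Slc8a3 (-0.53) and Scn4a (-0.25) were called, beside 3663 of 12853 genes. Clcn1 (-0.16) and Kcnma1 (0.15) were not, nor Kcnj2 and Nos1, as given above. At the endplate, described below in full, the replicate 1 libraries gave the same calls, with 0.48 for Scn4a, 0.40 for Clcn1, 2.47 for Atp1b1, -0.84 for Nos1 and -0.24 for Kcnma1. There 814 of 11236 genes were called.

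**Figure D2:**
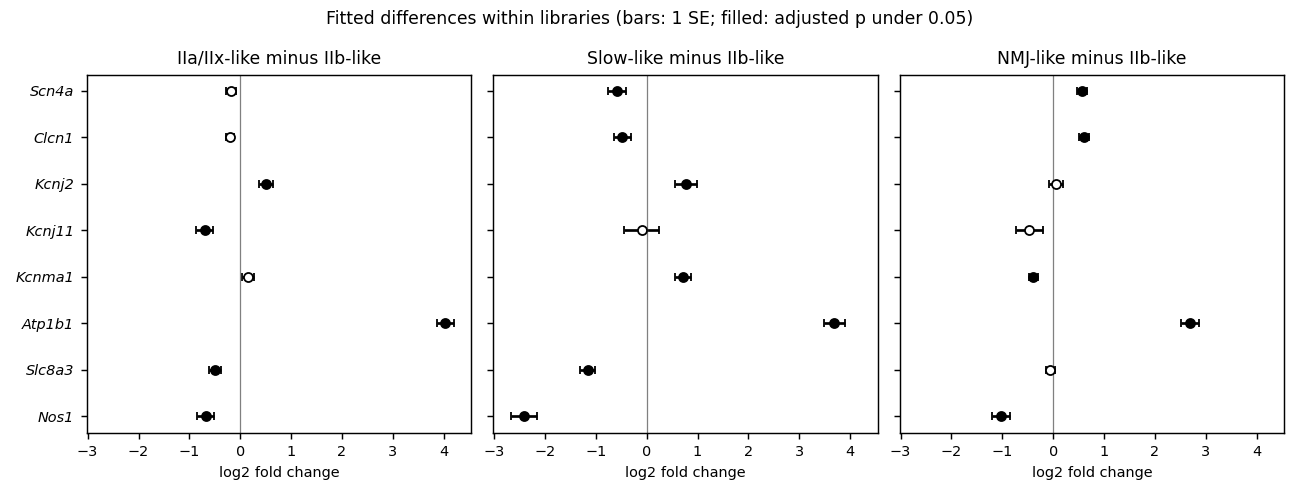
Fitted log2 fold change of each gene (horizontal axes) between Type IIa/IIx-like, Slow-like or Neuromuscular junction-like (NMJ) nuclei and Type IIb-like nuclei of the same libraries. Bars span 1 SE on either side and filled points have an edgeR adjusted p under 0.05. Atp1b1 lies at 4.03, 3.69 and 2.69, and Nos1 at -0.68, -2.42 and -1.02.

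The Type IIa/IIx-like class of the replicate 1 libraries was made of 2 clusters, 1 led by Myh1 and 1 by Myh2. Their levels were set side by side after the clusters had been seen, and no test was run. Kcnma1 was higher in the Myh2-led cluster in 4 of 4 libraries, at 3134 against 1774 CPM in Old, 2904 against 2295 in Young, 2322 against 1440 in Running and 3316 against 2049 in Sedentary. Atp1b1 was also higher there in 4 of 4, at 655 against 463 CPM in Old, 639 against 441 in Young, 450 against 261 in Running and 538 against 287 in Sedentary. Nos1 was lower in 4 of 4, at 61.9 against 105 CPM in Old, 139 against 203 in Young, 160 against 313 in Running and 96.2 against 149 in Sedentary. Slc8a3 was lower in 4 of 4 as well, at 600 against 800 CPM in Old, 898 against 1265 in Young, 605 against 883 in Running and 961 against 1497 in Sedentary. So was Scn4a, at 95.5 against 123 CPM in Old, 173 against 206 in Young, 144 against 167 in Running and 161 against 184 in Sedentary. Clcn1, Kcnj2 and Kcnj11 went in both directions over the 4 libraries. How many of all genes keep their direction in 4 of 4 libraries was not counted. The Myh2-led cluster held 65.6% of the Type IIa/IIx-like nuclei in Old replicate 1 and at most 30.5% in the other 3, so the class is not the same mixture in each library. The Myh1-led cluster also held Myh4, from 1017 CPM beside 2559 of Myh1 in Sedentary to 3585 beside 4124 in Young.

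Neuromuscular junction-like nuclei, which lie under the motor endplate, were compared with Type IIb-like nuclei after the class levels had been seen. The comparison covered the 7 libraries with at least 20 such nuclei (between 45 and 188) and called 12.2% of 6185 genes (6.45% higher and 5.72% lower). The 2 channels of the action potential were higher at the endplate in 7 of 7 libraries. Scn4a held 285 CPM in Young replicate 1, 356 in Young replicate 2, 199 in Old replicate 1, 359 in Sedentary replicate 1, 291 in Sedentary replicate 2, 247 in Running replicate 1 and 465 in Running replicate 2. For Scn4a this gave 0.56 on the log2 scale (SE 0.10, edgeR adjusted p = 0.00015). Clcn1 held between 606 and 930 CPM, all above the Type IIb-like levels of 323 to 602, which gave 0.61 on the log2 scale (SE 0.11, edgeR adjusted p = 0.00026). With no filter on low counts the Scn4a value was 0.25 and no longer called (edgeR adjusted p = 0.16).

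Atp1b1 was also higher at the endplate in 7 of 7 libraries, from 60.9 CPM in Young replicate 1 to 422 in Sedentary replicate 2 (log2 difference 2.69, SE 0.18, edgeR adjusted p = 5.1e-11). Nos1 was lower in 7 of 7, at 122 CPM in each of the Young, Old and Sedentary replicate 1 libraries, 234 in Running replicate 1 and between 0 and 41.5 in the replicate 2 libraries, where it rested on 0 to 5 UMIs. The fit gave -1.02 for Nos1 (SE 0.18, edgeR adjusted p = 0.00020). Kcnma1 was lower in 7 of 7 (-0.39, SE 0.10, edgeR adjusted p = 0.0075). Kcnj2, Kcnj11 and Slc8a3 were not called, with fitted log2 differences of 0.06, -0.47 and -0.05. Over libraries the endplate median of Atp1b1 was 236 CPM, between 29.6 in Type IIb-like and 424 in Type IIa/IIx-like nuclei. For Nos1 the endplate median was 122, beside 213 and 130. No fit was run against Type IIa/IIx-like nuclei, and the part of the fibre types of the endplate nuclei in these differences was not tested.

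The next comparison asked whether the genes belong to myofibres at all. Myofibre-like nuclei were set against all other named nuclei in the 5 libraries that held both, the 4 replicate 1 libraries and Old replicate 2, in which the other nuclei were 212 adipocyte-like ones. All 8 genes were higher in myofibre-like nuclei, with log2 differences between 2.37 for Kcnma1 and 2.82 for Scn4a. These fitted values use TMM scaling, while the percentages below are of plain CPM. The plain ratio within a library ran from 2.32 to 4.66 for Kcnma1, below its fitted value in every library, and from 2.61 to 7.14 for Scn4a. This comparison called 63.9% of 16832 genes and 32.1% higher. The level in the other nuclei was between 11.8% and 44.0% of the myofibre level for Slc8a3, Scn4a, Clcn1, Kcnma1, Kcnj2, Atp1b1 and Nos1. It was between 17.5% and 42.2% for Kcnj11 in the replicate 1 libraries, and 112% in Old replicate 2. Ttn, which encodes the giant sarcomere protein titin and marks myofibres, stood at 12.6% to 43.4% in the same libraries, and Ryr1, Trdn and Neb, other myofibre genes, at 12.6% to 42.9%. The part of free RNA in these levels was not tested.

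Ranking the classes of the replicate 1 libraries by median level, with 17 classes that reached 20 nuclei in at least 2 libraries, gave the same leading classes for Scn4a and Clcn1. Neuromuscular junction-like, Type IIb-like, Type IIa/IIx-like, Myotendinous junction-like and Slow-like nuclei and the myofibre nuclei of no type held the 6 highest places for both genes. Neighbouring classes within that group overlapped in range. The lowest of the 6 for Scn4a, Slow-like nuclei at 88.6 to 133 CPM, did not overlap the next class by median, pericyte-like nuclei at 48.9 to 84.9, but overlapped endothelial-like nuclei, which ran from 26.9 to 120. For Clcn1 no other named class went above 254 CPM, the highest pericyte-like value, and none of the 6 went below 327. Kcnj2 and Slc8a3 showed the same 6 classes at the top, but there the sixth class overlapped the pericyte-like range.

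Kcnma1 broke this pattern. Tenocyte-like nuclei, from tendon, held 4679 CPM in Young, 4302 in Running and 2568 in Old (replicate 1 libraries), against 1930, 1387 and 2007 in the Type IIb-like nuclei of the same libraries. Clcn1 in the same tenocyte-like nuclei was at 58.4, 161 and 180 CPM, below the Type IIb-like levels of 566, 602 and 477. The share of tenocyte-like nuclei with a Kcnma1 UMI was 92.2% in Young, 88.3% in Running and 67.6% in Old. Fibro-adipogenic progenitor-like nuclei gave 24.8%, 35.3% and 32.7% at median depths of 2662, 1901 and 2073 UMIs, beside 2445, 1653 and 859 in the tenocyte-like nuclei. The Sedentary library held 7 tenocyte-like nuclei and is not counted here. The tenocyte-like range overlapped the Type IIa/IIx-like range and lay below the Slow-like range of 4922 to 5395 CPM. Atp1b1 and Nos1 also departed from the myofibre order. Type IIb-like nuclei ranked 14th of 17 for Atp1b1, and Slow-like nuclei 16th of 17 for Nos1, with overlap with their neighbours in both cases. Kcnj11 departed as well, on few UMIs. Its median was 19.3 CPM in tenocyte-like (9 UMIs) and 17.5 in pericyte-like nuclei (17 UMIs). Myofibre nuclei of no type lay below these at 16.2 (45 UMIs), with overlapping ranges.

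**Figure D3:**
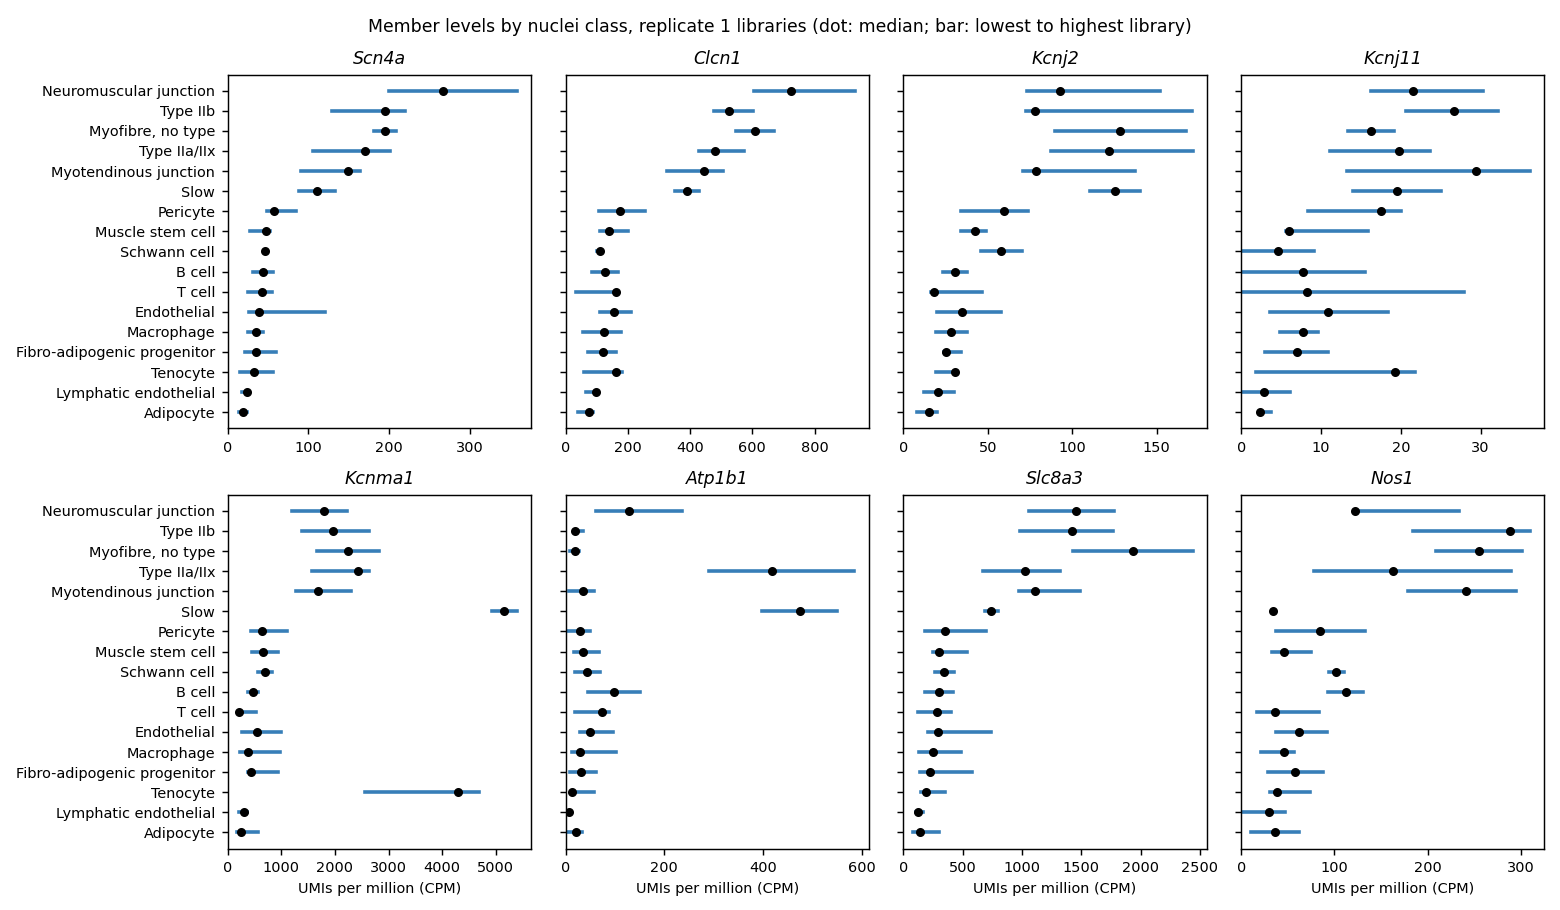
Level of each gene in CPM (horizontal axes, starting at 0) in 17 classes of nuclei of the replicate 1 libraries. Dots are medians over libraries with at least 20 nuclei of the class and bars run from the lowest to the highest library. Kcnma1 in tenocyte-like nuclei lies between 2568 and 4679 CPM, and Atp1b1 is high in Slow-like and Type IIa/IIx-like nuclei.

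The genes whose levels followed each of the 8 most closely were named over 53 sums of 1 class and 1 library (replicate 1 libraries, at least 50 nuclei), among 6890 genes. These sums share libraries and depth, and the correlations describe them only. Slc8a3 was followed by Pfkm (Pearson r = 0.98), Ppp1r3a (0.97) and Dtna (0.95), and Clcn1 by Myom1 (0.97) and Ttn (0.96). Scn4a was followed by Sptb (0.96), Clcn1 (0.96) and Ank3 (0.95). Kcnj2 was followed by Ldb3 (0.90), Pla2g4e (0.90) and Txlnb (0.90), and Kcnma1 by Bmpr1b, Lnpk and Tcea3 (each 0.86). Nos1 was followed by Tmem233 (0.86), Slc16a3 (0.85) and Gm12224 (0.85). Atp1b1 was followed by Coq8a (0.82), Fgfr1op (0.80) and Ckmt2 (0.79). Kcnj11, whose own mean level was below the limit of a mean log2 CPM of 4, was followed by Asb2 (0.84), Fbxo40 (0.82) and Abcb4 (0.81).

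A list of 61 other genes of membrane excitability, of which 58 are named in all 8 libraries, was described beside the 8. It holds sodium channel, sodium pump, potassium channel, chloride channel, calcium and nitric oxide pathway genes. Between Type IIa/IIx-like and Type IIb-like nuclei 43 were tested, of which 15 were called higher and 14 lower, beside 17.1% and 13.3% of all genes tested. The median log2 difference was -0.12, beside -0.01 over all genes. The called potassium channel genes were divided, 6 higher and 6 lower of 12 tested. Those higher included Kcnn2 (1.95, SE 0.13, edgeR adjusted p = 9.2e-10) and Kcnn3 (3.32, SE 0.31, edgeR adjusted p = 6.7e-08), which encode small-conductance calcium-activated channels. The higher genes with the smallest p-values also held Prkg1 (2.62), the cGMP-dependent kinase, Fxyd6 (3.30) of the sodium pump list and Atp1b4 (2.27). Atp1b4 was listed with the sodium pump by its name and is not counted as a pump subunit here.

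The lower genes with the smallest p-values included Kcnab1 (-2.76, SE 0.18, edgeR adjusted p = 5.7e-10), a beta subunit of voltage-gated potassium channels. They also held Cacng1 (-0.96) of the voltage-gated calcium channel and the other sodium pump beta subunits Atp1b3 (-0.86) and Atp1b2 (-1.48). The last was Abcc8 (-1.24), a sulfonylurea receptor that can pair with the Kcnj11 product. Abcc8 was sparse, at a median of 13.6 CPM in Type IIb-like nuclei, where Abcc9 of the same gene family was at 419. The beta subunits of the pump thus went in both directions between these classes, with Atp1b1 higher and Atp1b2 and Atp1b3 lower in Type IIa/IIx-like nuclei.

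Between Slow-like and Type IIb-like nuclei 38 of the 61 were tested, of which 11 were called higher and 15 lower, beside 12.5% and 10.6% of all genes tested. The median was -0.19, beside -0.01 over all genes. The higher genes with the smallest p-values included Prkg1 (2.67), Atp1b4 (2.81) and Kcnn3 (3.87). The lower genes with the smallest p-values were Kcnab1 (-2.39), Slc8a1 (-1.52), which encodes the exchanger NCX1, Sntb1 (-1.80), Cacng1 (-1.36) and Cacna2d1 (-0.76). Of 7 genes of the sodium pump list tested, Atp1b4 among them, 4 were called higher and 2 lower. Of 8 calcium genes tested 1 was called higher and 4 lower.

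At the endplate 33 genes of the list were tested, 9 called higher and 8 lower, beside 6.45% and 5.72% of all genes tested. The higher ones included Sntb2 (4.09, SE 0.22, edgeR adjusted p = 6.7e-13), a syntrophin, Kcnq5 (1.72), Kcnj12 (1.53), an inward rectifier like Kcnj2, and Slc8a1 (0.90). The lower ones included Kcnab1 (-1.18), Sntb1 (-1.37), Cacna2d1 (-0.45) and Cacna1s (-0.59). In myofibre-like against other named nuclei 27 of 58 were called higher and 20 lower, beside 32.1% and 31.8% of all genes tested, so that the lower count is near the background. The higher ones with the smallest p-values were Kcnq5 (2.27), Abcc9 (1.90), Atp1b4 (2.99), Cacng6 (2.62) and Cacnb1 (2.32), and the lower ones were Nos3 (-4.16), the endothelial nitric oxide synthase, Atp2b4 (-4.22), Kcnab2 (-3.24), Gucy1b1 (-3.96) and Kcnj8 (-3.58).

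The comparison of Old with Young muscle asked whether the genes change with age. None of the 8 was called in all nuclei, where edgeR and DESeq2 each called 0 of 20319 genes (0%) and 557 genes had an unadjusted edgeR p under 0.05. On simulated counts of this design the fit called none of the genes that had been changed, at either size of change, so the absence of a call in all nuclei does not show that a gene did not change. All nuclei mix fibre types, so fewer nuclei of a type and less RNA per nucleus cannot be told apart there. Myofibre-like nuclei, where all 8 genes were higher, were 5625 of 11686 in Old replicate 1 and 886 of 4772 in Old replicate 2. In Young they were 7586 of 11795 and 3520 of 4510. The part of these shares in the fitted differences was not tested. All 8 fitted differences were below 0, with a median of -0.64 beside 0.19 over all genes. They ran from -0.37 (SE 0.37) for Nos1 to -1.21 (SE 0.50) for Kcnj2, and Kcnj2, Clcn1 (-1.01, SE 0.42) and Scn4a (-0.88, SE 0.36) each had an unadjusted p of 0.042 and an edgeR adjusted p of 0.69. Without Old replicate 2 the values of Atp1b1 and Kcnj11 turned to 0.28 and 0.09.

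Kcnj2 in all nuclei was 125 CPM in Young replicate 1 and 41.5 in Young replicate 2, against 67.8 in Old replicate 1 and 24.0 in Old replicate 2. The level was lower in Old in each library set, but the groups overlapped. Old replicate 2 is mostly unnamed nuclei, which held 19.7 CPM. Over myofibre-like nuclei Kcnj2 was at 44.1 CPM in Old replicate 2 and 42.0 in Young replicate 2, against 94.0 in Old replicate 1 and 170 in Young replicate 1. Atp1b1 was 39.0 CPM in Young replicate 1 and 256 in Young replicate 2, against 115 in Old replicate 1 and 79.5 in Old replicate 2, so that the direction was opposite in the library sets. The number of Type IIa/IIx-like nuclei, in which Atp1b1 is high, moved the same way as its level, with 561 and 1190 in the Young libraries and 1147 and 175 in the Old libraries. The part of these numbers in the level was not tested.

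In Type IIb-like nuclei alone none of the 8 was called either, while 0.558% of 14524 genes were. Old replicate 2 entered with 26 nuclei, so this comparison rests mainly on the replicate 1 libraries. Scn4a was at 206 CPM in Young replicate 1 and 185 in Young replicate 2, against 129 in Old replicate 1 and 83.0 in Old replicate 2 (2 UMIs). Both Old values were below the Young values (log2 difference -0.95, SE 0.44, unadjusted p = 0.033, edgeR adjusted p = 0.63). Over all myofibre-like nuclei, however, Scn4a was at 265 CPM in Old replicate 2 (246 UMIs) against 170 in Young replicate 2, the opposite direction, and at 123 in Old replicate 1 against 206 in Young replicate 1. Kcnj2 was at 171 and 22.9 CPM in Young, against 79.9 and no UMI in Old (log2 difference -1.002, SE 0.46, unadjusted p = 0.031, edgeR adjusted p = 0.61). Slc8a3 was at 1262 and 1561 CPM in Young and 1586 and 1660 in Old, with a fitted difference of -0.22 (SE 0.40). The sign of the fit was thus opposite to the plain CPM, where both Old values were above both Young values. How many of all genes part the groups in this way, as Scn4a and Slc8a3 do, was not counted. The fits use TMM scaling and the CPM do not, also for Scn4a and Kcnj2, and the part of this scaling was not tested. The Type IIb-like class of Old replicate 1 drew 45.2% of its nuclei from a cluster led by Ostn and Igfn1 that held 5.22% of it in Young replicate 1. Of 49 other excitability genes tested here 1 was called, Kcnn2 (-1.94, SE 0.51, edgeR adjusted p = 0.031), and in all nuclei none of 58.

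**Figure D4:**
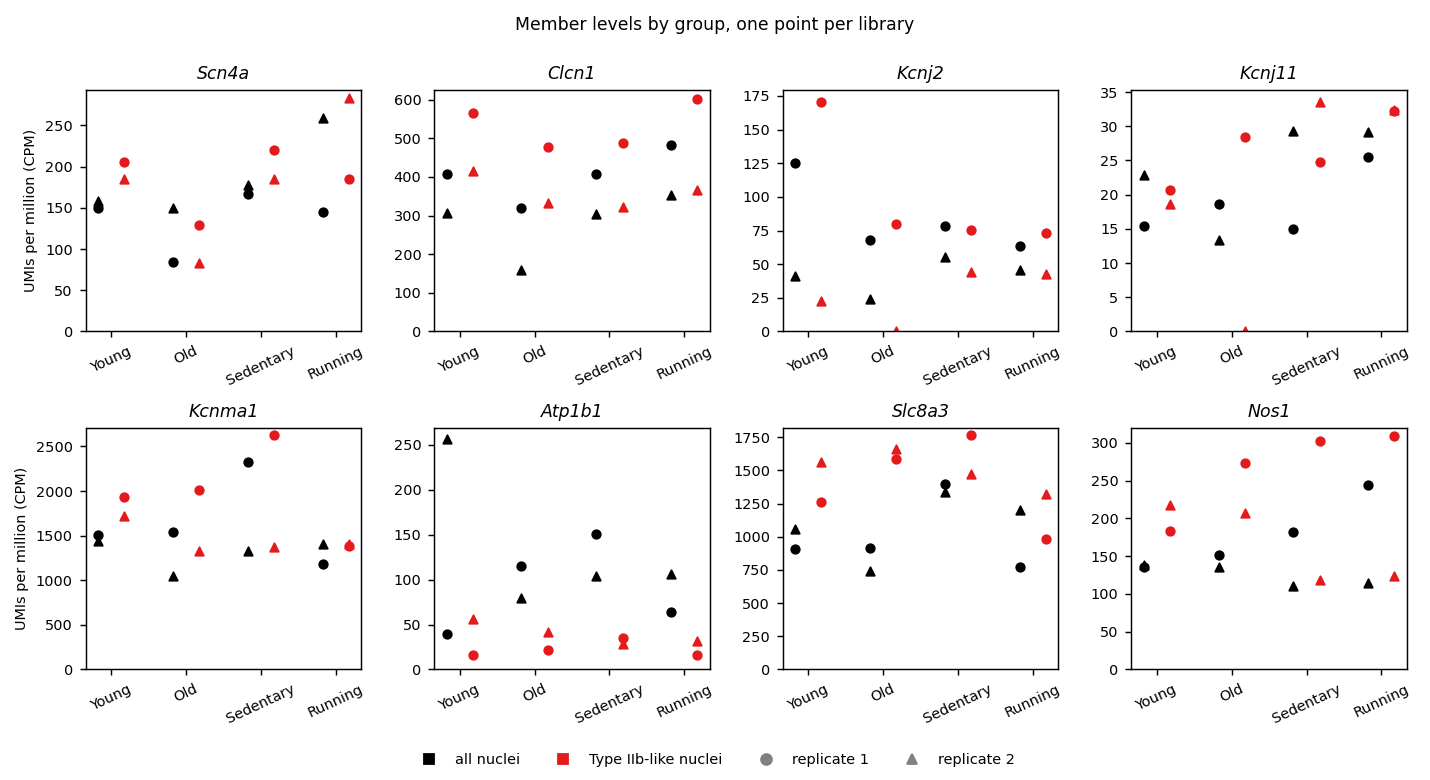
Level of each gene in CPM (vertical axes, starting at 0) by group, in all nuclei (black) and in Type IIb-like nuclei (red). Each point is 1 library, circles are replicate 1 and triangles replicate 2. Scn4a in Type IIb-like nuclei lies at 129 and 83.0 CPM in Old and at 206 and 185 in Young.

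The comparison of Running with Sedentary muscle asked whether training changes the genes. None of the 8 was called in all nuclei, where edgeR and DESeq2 each called 0 of 20319 genes (0%) and 98 had an unadjusted edgeR p under 0.05. The fit used the same libraries and dispersion as Old against Young, and no simulation was run for this comparison. The absence of a call here too does not show that a gene did not change. The fitted differences ran from -0.65 (SE 0.76) for Atp1b1 to 0.34 (SE 0.54) for Kcnj11, 4 above and 4 below 0, with a median of -0.03. In Type IIb-like nuclei none of the 8 was called, while 0.138% of 14524 genes were, and the differences ran from -0.56 (SE 0.41) for Atp1b1 to 0.24 (SE 0.39) for Clcn1.

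Slc8a3 in Type IIb-like nuclei was at 1767 CPM in Sedentary replicate 1 and 1474 in Sedentary replicate 2, against 986 in Running replicate 1 and 1320 in Running replicate 2 (-0.49, SE 0.39, unadjusted p = 0.20). Both Running values were below both Sedentary values, but how many of all genes part the groups in this way was not counted. Clcn1 was at 487 and 323 CPM in Sedentary and 602 and 366 in Running, higher in Running in each library set with overlap between the groups. Nos1 was at 302 and 118 CPM in Sedentary and 310 and 124 in Running (0.04, SE 0.38), so that the library sets differed far more than the groups. Sedentary replicate 1 drew 12.3% of its Type IIb-like nuclei from the cluster led by Myh4 and Actn3, against 37.9% in Running replicate 1. In the replicate 2 libraries 24.6% of the class in Sedentary and 78.1% in Running came from a cluster led by Prkag3 and Pfkfb3. Of 49 other excitability genes tested 1 was called, Sntb1 (-1.69, SE 0.40, edgeR adjusted p = 0.030), a syntrophin, and in all nuclei none of 58.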

How the data were processed

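Single-nucleus libraries of mouse gastrocnemius were analysed from the filtered matrices of raw UMI counts per gene and nucleus that the authors deposited, 1 per library. Per the labels' processing notes, Cell Ranger 6.1.2, Seurat 4.1.1 and the build mm10 were used. The study's methods also name PISA for libraries made with the DNBelab C system of MGI, without saying which these are. Whether intronic reads were counted is not given in the sources used here. The 8 genes and the lists were chosen with earlier results of these data known. Replicate numbers follow accession order and coincide with the library set, so that a term for the set is also a block by replicate number. They mark no shared animal.

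The nuclei filter followed the study (above 200 and below 6000 genes, mitochondrial share below 6%). Doublets stayed in. Neither the 12 mitochondrial genes nor the 88 genes of ribosomal proteins entered the sums. Clustering was done within each library set with leidenalg 0.10.2 under scanpy 1.11.5, on 30 principal components of 2000 variable genes with 20 neighbours at resolution 1.0, and classes were named from marker lists, with naming limits set after the clusters were seen. Counts were summed per library, or per library and class of at least 20 nuclei. The test was the quasi-likelihood one of edgeR 4.0.16 under R 4.3.3 (TMM, filterByExpr, Benjamini-Hochberg over all genes tested, threshold 0.05), with the library set as a term between groups and the library as a block within libraries. Classes are cut from the same nuclei that are compared, which these p-values do not allow for. SE is the log2 fold change divided by the root of F. The fits were tested on simulated data with 200 changed genes. Shares count nuclei with at least 1 UMI, and their error was taken as 95% Wilson intervals, which cover counting error only.

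Named in the text are the 8 genes in every comparison, up to 5 called genes of the other excitability list in each direction by smallest p, and for each of the 8 the 3 genes with the highest Pearson r of log2 CPM (prior 1 CPM) among genes with a mean of at least 4. Genes named beyond this rule were chosen after their values were seen. A few genes that the rule picks are not reported here. Symbols matched the GENCODE vM21 gene models on GRCm38, from which the coordinates come. The alternatives were DESeq2 1.42.0, scaling by RLE, no library block, omission of the low-count filter, fewer libraries, all deposited nuclei, nuclei without the 6% highest Scrublet scores, nuclei assigned by dominant myosin (at least 5 myosin UMIs and a 75% share), each library set alone and resolution 0.5. The endplate comparison and the fits without Old replicate 2 and Sedentary replicate 1 together were added after seeing the data.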

Additional observations from a re-analysis of the deposited data

Results flagged for a closer look

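Kcnj2 at the endplate differed in direction between Running and Sedentary libraries. The log2 ratio of Neuromuscular junction-like to Type IIb-like nuclei was 0.028 in Running replicate 1 and 0.21 in Running replicate 2, against -0.039 in Sedentary replicate 1 and -0.61 in Sedentary replicate 2. It rests on 49, 6, 18 and 2 UMIs in the endplate nuclei, the ratios in the replicate 1 libraries lie near 0, and the difference was not tested. No group has more than 2 libraries, so no library was tested for lying far from the others of its group.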

How the results depend on the processing

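Of the alternatives run for the 8 genes within libraries, 124 of 136 in Type IIa/IIx-like, 97 of 120 in Slow-like, 110 of 118 in Neuromuscular junction-like and 96 of 96 in myofibre-like nuclei kept the direction and the side of the threshold. Between groups none of the 8 genes was called under any alternative. Those fits had 2 libraries a group and 3 residual degrees of freedom. The cause of the changes below was not tested. The replicate numbers coincide with the library sets and mark no shared animal, so the fits without a replicate block are those that drop the library or the library set.

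Without the library as a block, Type IIa/IIx-like nuclei gave 1659 calls in place of 3457 and Neuromuscular junction-like nuclei 362 in place of 753, and Kcnj2 (0.48, edgeR adjusted p = 0.27), Slc8a3 (-0.45, adjusted p = 0.10) and Nos1 (-0.53, adjusted p = 0.16) were not called in Type IIa/IIx-like nuclei, nor Scn4a (0.58, adjusted p = 0.068) and Kcnma1 (-0.42, adjusted p = 0.22) at the endplate, nor Kcnj2 (0.64, adjusted p = 0.054) in Slow-like nuclei. The replicate 2 libraries alone gave 1365 calls in Type IIa/IIx-like and 893 in Slow-like nuclei (main count 1773), the replicate 1 libraries alone 3290 in Slow-like nuclei, and nuclei assigned by dominant myosin 3369. Without the filter on low counts the endplate gave 2513 calls, Kcnj2 was at -0.26 there, Slc8a3 was called at -0.37, and Kcnj2 in Slow-like nuclei was not called (0.62, edgeR adjusted p = 0.072). Directions also turned for Kcnma1 in Type IIa/IIx-like nuclei by dominant myosin (-0.069), for Scn4a in Slow-like nuclei at resolution 0.5 (0.046), for Kcnj11 in Slow-like nuclei of the replicate 2 libraries (0.50), and for Kcnj2 at the endplate in the replicate 1 libraries (-0.0070). With each library left out in turn, Kcnj11 in Slow-like nuclei ran from -0.31 to 0.19 and Kcnj2 at the endplate from -0.055 to 0.16.

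Counts between groups rested on single libraries. For Old against Young in all nuclei, 0 calls became 4 with the 4 libraries of the comparison, 177 without Old replicate 2 and Sedentary replicate 1 together, and 0 to 8 with each library left out (8 without Sedentary replicate 1). For Running against Sedentary in all nuclei the corresponding counts were 82, 15 and 0 to 418 (418 without Sedentary replicate 2). In Type IIb-like nuclei the 81 calls for Old against Young became 11 by DESeq2, 0 without the library set term, 273 with the 4 libraries, 0 by dominant myosin and 0 to 282 with each library left out (282 without Young replicate 2). The 20 calls for Running against Sedentary became 8 with RLE scaling, 0 by DESeq2, without the filter, without the library set term, with the 4 libraries or by dominant myosin, and 0 to 88 with each library left out (88 without Sedentary replicate 2).

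Fitted values near 0 turned sign. Atp1b1 in all nuclei was at 0.79 (Old against Young) and 0.52 (Running against Sedentary) without Old replicate 2 and Sedentary replicate 1. Nos1 in Type IIb-like nuclei (Old against Young) was at 0.0090 without the library set term, and Kcnj2 (Running against Sedentary) at 8.2e-05 with RLE scaling and 0.027 without the filter. With each library left out, Old against Young in all nuclei ran from -1.51 to 0.090 for Kcnj11 and from -1.86 to 0.98 for Atp1b1. Running against Sedentary in all nuclei ran from -0.15 to 0.51 for Scn4a, from -0.80 to 0.34 for Kcnj2, from -0.20 to 1.02 for Kcnj11, from -0.88 to 0.0070 for Kcnma1 and from -0.075 to 0.58 for Nos1. In Type IIb-like nuclei Old against Young ran from -1.39 to 0.83 for Kcnj2, from -1.12 to 0.16 for Atp1b1, from -0.60 to 0.10 for Slc8a3 and from -0.98 to 0.40 for Nos1. There Running against Sedentary ran from -0.37 to 0.66 for Scn4a, from -0.72 to 0.54 for Kcnj2, from -0.19 to 0.52 for Kcnj11, from -1.18 to 0.26 for Atp1b1 and from -0.32 to 0.38 for Nos1. Without Old replicate 1 neither Kcnj2 nor Kcnj11 had a UMI left in Old Type IIb-like nuclei, and those fits are not in the ranges. Myofibre-like against other nuclei in the replicate 2 libraries alone and all deposited nuclei by class were not run.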
